A study of Homo sapiens with 20 samples.

Results

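The clustered protocadherin genes lie in 3 neighbouring groups, alpha, beta and gamma, on the long arm of human chromosome 5. The members described here are the H3K4me3 peaks that overlapped the interval from 140160000 to 140900000 of chromosome 5 in GRCh37, which was set by position and not by any measured value. The 10 peak lists held 205 such peaks of 306884 in all. Merging the peaks of every list across gaps of at most 1000 bp gave 31 sites in the interval of 31428 merged regions on the autosomes and X. The sites are numbered 1 to 31 from the lowest to the highest position. The nearest merged region before the interval ended 52861 bp short of it, and the nearest one after it began 1660 bp beyond it.

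The mark measured was H3K4me3, the trimethylated lysine 4 of histone H3 that is typical of active promoters. Its positions came from ChIP-seq, the sequencing of DNA precipitated with an antibody to the mark, in WM164, a human melanoma cell line with a mutant BRAF kinase. Each of 5 groups had 2 H3K4me3 libraries. All groups were the same cell line. Parental cells received DMSO, the solvent of the drug, for 3 days. Colony cells had been kept for 45 days in 50 nM dabrafenib, a BRAF inhibitor, and resistant cells for more than 90 days in the same dose. Against parental cells, the length of treatment therefore cannot be told apart from the drug. The other groups overexpressed GFP, a fluorescent protein that serves as the control transgene, or NRAS Q61K, an activated RAS protein, and no drug is given for them. The sources used here give neither the vectors of the transgenes nor whether a line was 1 clone. Fixation is described for the parental, colony and resistant cells only. Nothing in the labels says that replicates were separate cultures, so the p-values rest on a spread between libraries that may be technical.

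Clustered protocadherins are cell-surface proteins of the cadherin family. In the alpha and gamma clusters each variable exon has a promoter of its own and is spliced to constant exons shared by the cluster, whereas each beta gene is a single coding exon. Neurons use a small choice of these promoters per cell, which gives the cell a surface identity, and the choice is known to depend on DNA methylation, the insulator protein CTCF and cohesin. In tumours the clusters are known as targets of DNA methylation that spans many neighbouring genes.

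The RefSeq table of GRCh38.p14 listed 53 coding genes in the clusters, 15 alpha, 16 beta and 22 gamma, in that order from PCDHA1 to PCDHGC5. It also listed SLC25A2, a mitochondrial carrier, and TAF7, a subunit of the general transcription factor TFIID, between PCDHB15 and PCDHGA1, so a site of the interval need not belong to a protocadherin gene. The peaks are in GRCh37 and the annotation at hand is not, so no site was assigned to a gene, and sites are described by position. The same limit meant that marker genes of melanocytes were not used to check the cell type. RefSeq promoter windows, 250 bases before to 50 after a gene's start, were found for 47 of the 53 genes. The 4 letters CGCT form the core of an element that many protocadherin promoters are known to share. They were present on either strand in 46 of those 47 genes (97.9%), against 71.9% of the 27305 genes with a window. The windows were poor in CpG and in G and C. The highest CpG count among a gene's windows had a median of 7, against 16 over all genes. A gene with several windows can count higher by that measure. The share of G and C, averaged over a gene's windows, had a median of 39.7% against 58.3%. The 250 bases before the start are printed below for the first gene of each cluster and the last of alpha, to show the sequence that these promoters present. Capitals mark CGCT or its reverse complement AGCG, the plus strand is written 5′ to 3′, and positions are in GRCh38.p14, not on the scale of the sites. The 4 letters alone occur in most gene windows, so a capitalised match need not be the shared element, which was not searched for.
PCDHA1, chr5:140785890-140786139, plus strand: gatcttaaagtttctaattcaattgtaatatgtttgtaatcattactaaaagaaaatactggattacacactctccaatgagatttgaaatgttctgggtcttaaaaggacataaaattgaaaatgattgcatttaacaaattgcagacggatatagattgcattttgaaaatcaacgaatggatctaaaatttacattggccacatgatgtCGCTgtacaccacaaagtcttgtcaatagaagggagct
PCDHAC2, chr5:140966226-140966475, plus strand: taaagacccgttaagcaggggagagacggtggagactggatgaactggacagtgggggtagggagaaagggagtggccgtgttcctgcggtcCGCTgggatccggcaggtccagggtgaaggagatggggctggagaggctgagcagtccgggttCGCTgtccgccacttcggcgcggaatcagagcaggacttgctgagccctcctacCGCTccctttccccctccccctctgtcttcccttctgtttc
PCDHB1, chr5:141051124-141051373, plus strand: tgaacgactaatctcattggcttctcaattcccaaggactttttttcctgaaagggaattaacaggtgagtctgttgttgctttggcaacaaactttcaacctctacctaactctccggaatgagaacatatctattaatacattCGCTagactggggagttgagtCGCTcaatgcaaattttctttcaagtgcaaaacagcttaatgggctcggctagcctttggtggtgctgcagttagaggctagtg
PCDHGA1, chr5:141330264-141330513, plus strand: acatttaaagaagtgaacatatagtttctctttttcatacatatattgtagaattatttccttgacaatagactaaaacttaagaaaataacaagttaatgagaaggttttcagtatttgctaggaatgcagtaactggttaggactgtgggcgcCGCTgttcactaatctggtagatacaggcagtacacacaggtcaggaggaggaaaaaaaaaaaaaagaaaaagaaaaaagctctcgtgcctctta
PCDHA1, PCDHB1 and PCDHGA1 held 3, 5 and 3 CpG in these 250 bases and PCDHAC2 held 13. PCDHAC2 was also the richest in G and C, at 62.4% against 31.6%, 42.8% and 34.4%.

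The sites were short and unevenly spread. Their median length was 897 bp, from 156 bp to 3680 bp, and the median gap between neighbours was 13276 bp. The widest unmarked gap, 131897 bp, lay between sites 5 and 6, and the next, 77224 bp, between sites 26 and 27. The interval was split at gaps over 40000 bp, a value chosen after the gaps were seen, and the gaps nearest to it were 39660 bp, after site 9, and 43230 bp, after site 7. The stretch with the most sites then ran from site 8 to 22, with 15 sites in 190478 bp. In it the parental libraries each marked 12 sites, the colony libraries 5 and 4, the resistant libraries 7 and 8, the GFP libraries 9 and 11 and the NRAS Q61K libraries 14 and 12. The colony and resistant libraries were thus the lowest there, as they were over all merged regions. They marked 43.2% to 46.9% of those regions, against 56.7% to 73.7% in the other libraries. Sites 1 to 5 did not follow that order: 3 and 2 were marked in parental, 4 and 3 in colony libraries, 3 and 3 in the resistant pair, 3 and 2 with GFP and 5 and 4 with NRAS Q61K.

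Over the whole interval, with the lists as deposited, NRAS Q61K libraries marked the most sites and drug-treated libraries the fewest. The order did not hold with every list cut to the length of the shortest, its strongest peaks kept, where sites marked in both libraries numbered 17 in parental, 9 in colony, 13 in resistant, 9 in GFP and 16 in NRAS Q61K cells. Parental libraries marked 21 and 20 of the 31 sites, colony libraries 14 and 11, resistant libraries 15 and 15, GFP libraries 18 and 19 and NRAS Q61K libraries 27 and 23. Each drug library therefore lay below each parental, GFP and NRAS Q61K library. The resistant libraries marked 48.4% of the sites each, against 44.1% and 43.2% of all merged regions. The colony libraries marked 45.2% and 35.5% of the sites, against 45.7% and 46.9% of all merged regions. In the deposited lists, sites marked in both libraries of a group numbered 20 in parental, 11 in colony, 13 in resistant, 16 in GFP and 23 in NRAS Q61K cells. As shares of the sites these were 64.5%, 35.5%, 41.9%, 51.6% and 74.2%. Over all merged regions the shares marked in both were 53.6%, 43.4%, 42.3%, 58.3% and 60.6%. The bases under peaks summed to 18284 ± 2920 bp (SD, n = 2) in parental, 13022 ± 827 bp in colony, 11978 ± 218 bp in resistant, 12610 ± 158 bp in GFP and 18573 ± 1920 bp in NRAS Q61K cells. By that sum the GFP libraries, at 12499 and 12722 bp, stood among the drug libraries, which ran from 11824 to 13606 bp. Parental and NRAS Q61K cells differed by less than the SD of either pair. These sums were not tested, since the smallest p of a two-sided exact permutation test of 2 libraries against 2 is 0.333.

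**Figure D1:**
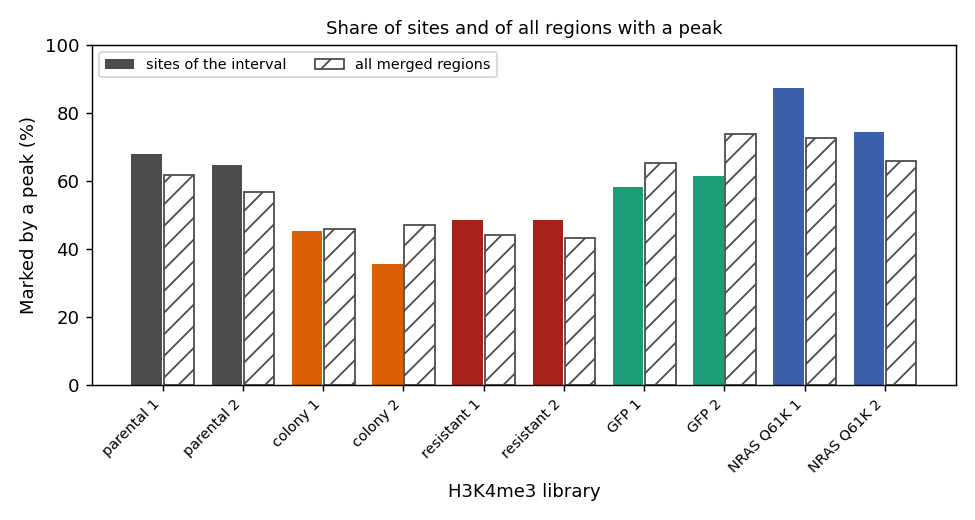
Percentage of the 31 sites of the interval (filled bars, coloured by group) and of all 31428 merged regions (hatched bars) that held a peak, for each H3K4me3 library. The filled bars run from 35.5% in colony 2 to 87.1% in NRAS Q61K 1, and the hatched bars from 43.2% in resistant 2 to 73.7% in GFP 2.

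The whole lists also held fewer peaks in the drug libraries, 19111 to 21573 against 29258 to 45376 in the other libraries, and the shortest peak of a list was 255 to 284 bp in the drug libraries and 142 to 202 bp in the others. The lists hold no read counts, so depth is unknown, and list length and shortest peak cannot be told apart from treatment. The share of all merged regions that was marked was 56.7% and 61.5% in the parental pair and 43.2% to 46.9% in the drug libraries. It was 65.2% and 73.7% in the GFP pair, above both parental libraries, whereas within the interval both GFP libraries (58.1% and 61.3%) lay below both parental ones (67.7% and 64.5%). Peaks of the interval were narrower than most: a marked site held a median of 513 to 902 bp under peaks per library, against 1397 to 2635.5 bp for all marked regions. The strongest peak of a marked site stood at a median list percentile of 41.5 to 60.2 in the parental, colony, GFP and NRAS Q61K lists. In the resistant lists it was 25.5 and 23.6. The percentile is the peak's rank by −log10 q within its own list, tied peaks taking their mean rank, so it depends on what else the list holds. The median −log10 q itself was 7.9 and 8.3 in the resistant lists, 10.6 and 8.8 in the GFP lists and 12.1 to 18.1 in the others.

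Marking in all 10 libraries was found at 6 sites, 19.4% of the sites, against 38.5% of all merged regions. They were site 1 (140174159 to 140175243), site 8 (140464166 to 140465325), site 10 (140514602 to 140515949), site 16 (140579129 to 140580166), site 23 (140697934 to 140701613) and site 31 (140891844 to 140894314). Site 23 was the longest and, in bases under peaks, the steadiest. Its strongest summits ranged over 1321 bp, the most of any site. They lay at 140699524 and 140699585 in the colony libraries and from 140700039 to 140700845 in the others. Its bases under peaks were 2515 and 2198 in parental, 2879 and 2802 in colony libraries, 2275 and 2447 in the resistant pair, 2506 and 2611 with GFP and 2542 and 2664 with NRAS Q61K. No comparison of groups passed the threshold at site 23 (limma adjusted p from 0.0955 to 0.956). Site 10 held 1074 and 854 bp in parental, 1227 and 1073 bp in colony, 980 and 629 bp in resistant, 1055 and 748 bp in GFP and 976 and 988 bp in NRAS Q61K libraries. It passed the threshold in no comparison (limma adjusted p from 0.562 to 0.908). The authors' −log10 q of its strongest peak ran from 21.2 to 48.9. Sites 1, 8 and 16 had 513 to 990 bp, 529 to 1159 bp and 304 to 1032 bp under peaks, and none of the 3 passed the threshold in any comparison. At site 8 both colony libraries (529 and 614 bp) and both resistant libraries (578 and 533 bp) lay below the other 6 (730 to 1159 bp), with a log2 difference from parental cells of -0.64 (SE 0.19, limma adjusted p = 0.0516) in colony cells and -0.45 (SE 0.19, adjusted p = 0.134) in resistant cells.

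**Figure D2:**
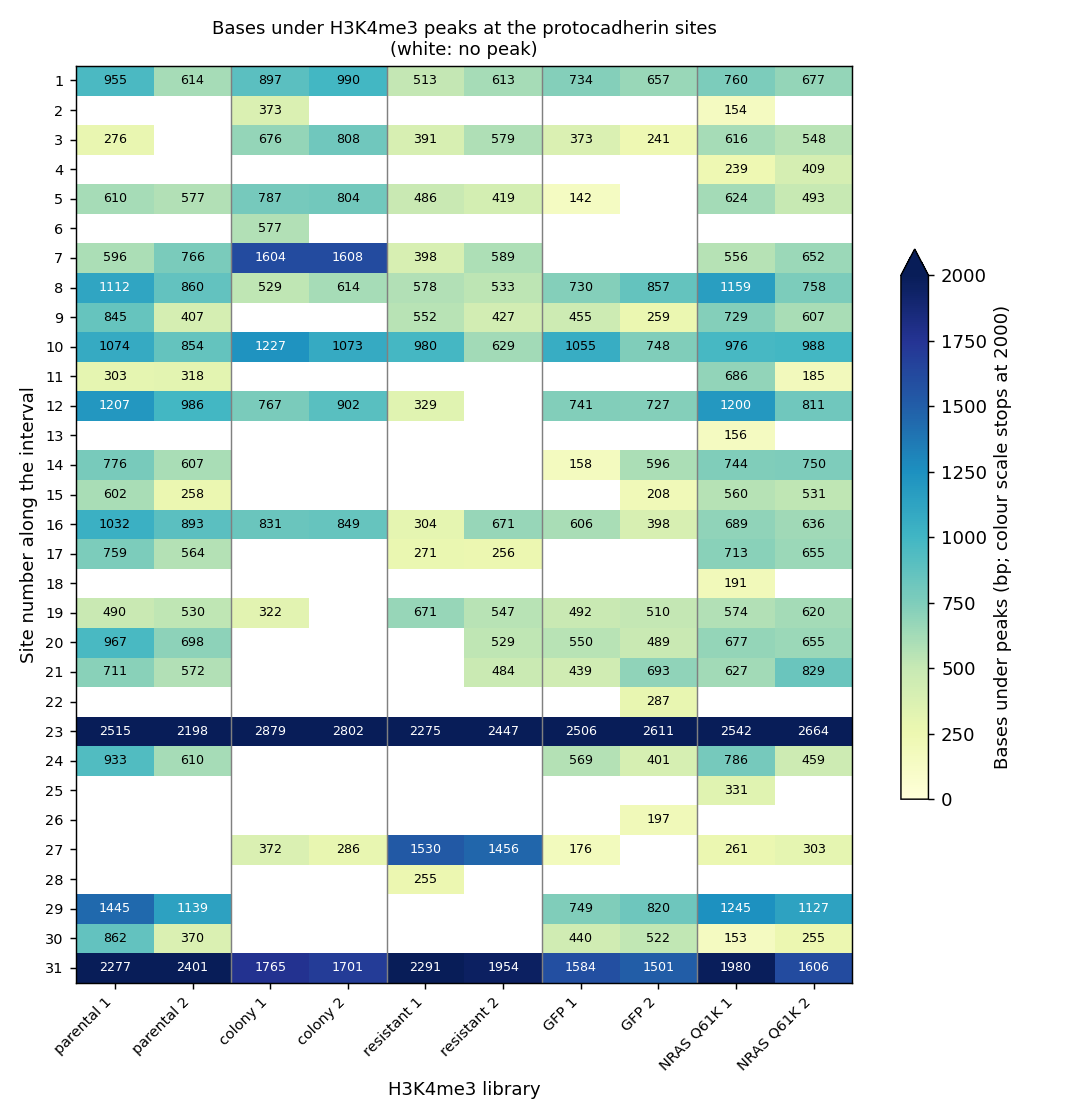
Bases under H3K4me3 peaks at each of the 31 sites (rows) in each library (columns), printed in the cells and shown by colour on a scale that stops below the longest values, with white cells where no peak was called. Sites 1, 8, 10, 16, 23 and 31 are filled in every column, and sites 14, 24, 29 and 30 are empty in the 4 drug columns alone.

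**Figure D3:**
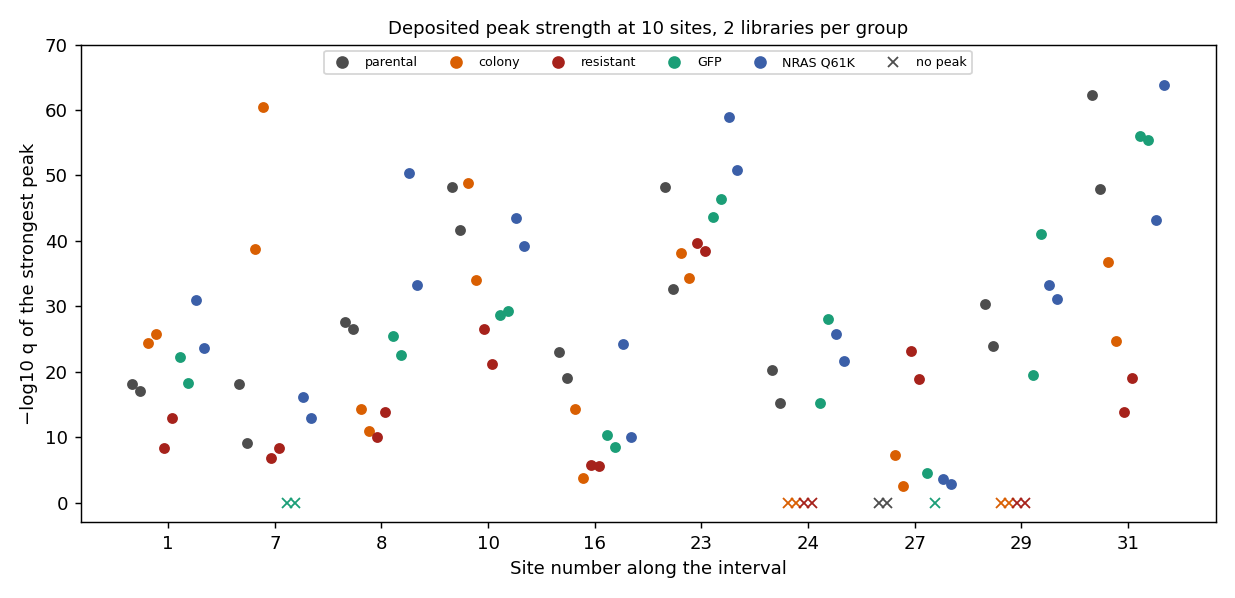
The authors' −log10 q of the strongest peak at 10 sites, with 1 point per library coloured by group and crosses where no peak was called. At site 27 the resistant libraries reach 23.1 and 18.9 and no other library exceeds 7.3, and at site 7 the colony libraries reach 38.8 and 60.5 and no other library exceeds 18.1.

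Colony libraries had no H3K4me3 peak at many sites that parental libraries marked. Of the 20 sites marked in both parental libraries, 10 (50%) had no peak in either colony library, where 15.6% of all such regions were lost. The lost count was 7 with lists of equal length and 4 once peaks with a −log10 q under 10 were removed. Of the 10 sites without a parental peak, 1 was marked in both colony libraries, where 1.71% of all such regions were gained. On covered length, the bases of a site under peaks, tested with limma over all regions (adjusted p under 0.05), 11 of the 24 sites with a peak in at least 2 libraries were narrower and 3 wider, where 16.7% and 4.29% of all tested regions were. The median log2 difference of those 24 sites was -0.53, and that of all tested regions -0.05. The sites are neighbours in 1 interval and share libraries, so these shares describe the interval and carry no test of their own.

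The losses with the most marked sequence were at sites 29, 20 and 24. Site 29 (140874293 to 140875838) held 1445 and 1139 bp under peaks in parental, 749 and 820 bp in GFP and 1245 and 1127 bp in NRAS Q61K libraries, and no peak in either colony library (limma adjusted p = 4.8e-05). Its strongest peaks had a −log10 q of 19.5 to 41.1, so it was not among the weak sites of the lists that marked it, with list percentiles of 58.7 to 77.6. Site 24 (140709980 to 140711008) held 933 and 610 bp in parental, 569 and 401 bp in GFP and 786 and 459 bp in NRAS Q61K libraries and no peak in either colony library (adjusted p = 6.95e-04). The strongest summits of those 6 libraries at site 24 fell within 40 bp of each other. Site 20 (140613837 to 140614905) held 967 and 698 bp in parental, 550 and 489 bp in GFP, 677 and 655 bp in NRAS Q61K libraries and none in colonies (adjusted p = 0.0134), while resistant 2 alone of the resistant pair kept 529 bp.

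The other 7 sites lost in colonies were mostly weaker. Site 14 (140566580 to 140567500; adjusted p = 0.00376) and site 17 (140588274 to 140589032; adjusted p = 2.8e-04) held 776 and 607 bp, and 759 and 564 bp, in the parental libraries. Site 21 (140624846 to 140625691; adjusted p = 0.0237) held 711 and 572 bp, and site 9 (140473813 to 140474941; adjusted p = 0.00193) held 845 and 407 bp. The remaining 3 were site 30 (140887773 to 140889093; 862 and 370 bp, adjusted p = 0.00258), site 15 (140571935 to 140572586; 602 and 258 bp, adjusted p = 0.016) and site 11 (140535386 to 140536071; 303 and 318 bp, adjusted p = 0.0219). At these 7 sites no parental peak exceeded a −log10 q of 18. Site 31, marked in every library, was narrower in colonies, with 1765 and 1701 bp against 2277 and 2401 bp in parental cells (log2 difference -0.42, SE 0.11, adjusted p = 0.0307), and the groups did not overlap.

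Colonies were wider at sites 3, 7 and 27. Site 7 (140419187 to 140420935) held 596 and 766 bp in parental, 1604 and 1608 bp in colony, 398 and 589 bp in resistant and 556 and 652 bp in NRAS Q61K libraries and no peak in either GFP library. The colony pair stood above every other library (log2 difference from parental 1.02, SE 0.24, limma adjusted p = 0.0176). Its added sequence lay mainly on the low-position side, where the colony peaks began at 140419332 and 140419187 and those of the other 6 libraries between 140419952 and 140420100. Site 3 (140220494 to 140221390) held 276 bp in parental 1, none in parental 2, 676 and 808 bp in colony, 391 and 579 bp in resistant, 373 and 241 bp in GFP and 616 and 548 bp in NRAS Q61K libraries (colony against parental, adjusted p = 0.0183). Site 27 (140854949 to 140856576) was unmarked in parental cells and held 372 and 286 bp in colonies (adjusted p = 0.0157). Both colony peaks were weak, with a −log10 q of 7.3 and 2.6, and with peaks under 10 removed no colony peak remained and the log2 difference was -0.03.

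Sites 9, 14, 17, 24, 29 and 30 were called in colonies whichever 1 of the 4 libraries was left out. Without colony 1 sites 3, 7, 11, 15, 20, 21, 27 and 31 missed the threshold (adjusted p from 0.0507 to 0.0818), without colony 2 sites 3, 7, 11, 15, 21 and 31 (0.0596 to 0.115), without parental 1 sites 7, 11, 15, 20, 21 and 27 (0.0676 to 0.107) and without parental 2 sites 11, 21 and 31 (0.0798 to 0.139), and the counts then were 7 or 8 narrower. The wider count was 1 without parental 1 and 0 without colony 1. Once peaks with a −log10 q under 10 were removed, sites 9, 14, 17, 27 and 31 missed the threshold (0.0979 to 0.987) and sites 3, 11, 15 and 30 were no longer tested, and with lists of equal length sites 27 and 31 missed it (0.353 and 0.0709) and sites 11, 15 and 30 were not tested.

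In resistant cells 6 of the 20 sites marked in both parental libraries (30%) had no peak, where 22.0% of all such regions were lost, and 1 of 10 unmarked sites was gained, where 4.63% were. Limma called 8 of 24 sites narrower and 2 wider, against 20.6% and 7.93% of all tested regions. The median log2 difference was -0.305 over those sites and -0.07 over all tested regions. These values and those of the colonies rest on the same 2 parental libraries. The centring of the resistant libraries, on regions covered in all 10 libraries, was -0.19 and -0.22 on the log2 scale, so widths are relative to that narrowing.

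The gain was site 27, and it was the site with the largest difference in covered length in the interval. Resistant libraries held 1530 and 1456 bp under peaks there, with a −log10 q of 23.1 and 18.9. Parental libraries held no peak, colony libraries 372 and 286 bp, GFP 1 176 bp, GFP 2 none and NRAS Q61K libraries 261 and 303 bp. The resistant pair thus stood apart from all 8 other libraries (limma adjusted p against parental = 1.62e-04). The strongest summits in resistant 1 and 2 lay at 140855862 and 140855865, and the summits of the weaker peaks in the other 5 libraries ranged from 140855441 to 140855895. A further peak of 255 bp in resistant 1 alone formed site 28 (140858056 to 140858310), 1479 bp beyond site 27. That peak was weak, with a −log10 q of 2.8.

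**Figure D4:**
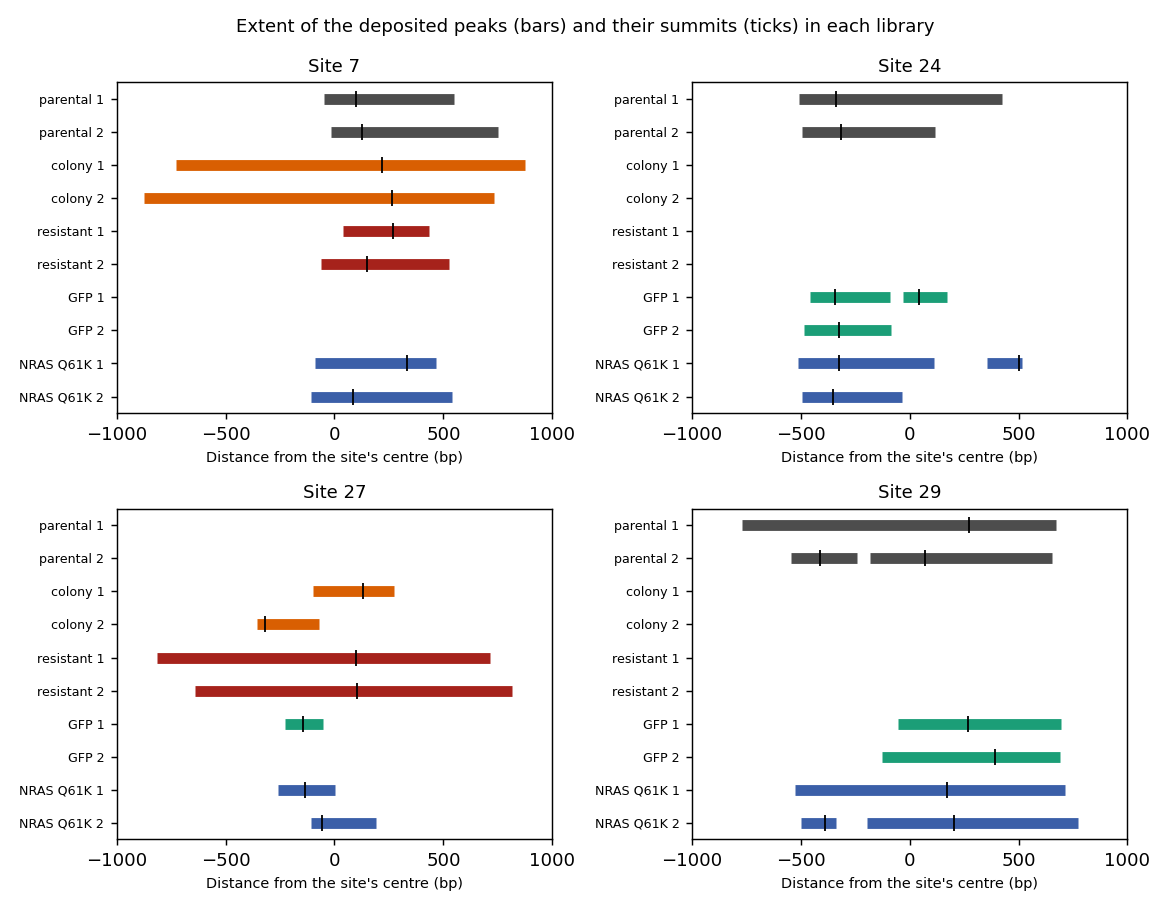
Extent of each deposited peak (bars, coloured by group) and its summit (ticks) in the 10 libraries at sites 7, 24, 27 and 29, as distance in bp from the centre of the merged site. The colony bars at site 7 and the resistant bars at site 27 are the longest of their panels, and at sites 24 and 29 the colony and resistant rows are empty.

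The 6 sites lost in resistant cells were 11, 14, 15, 24, 29 and 30. Site 29 had a limma adjusted p of 4e-05 and site 24 of 7.59e-04, and both were empty in the 2 resistant libraries. At site 14 the adjusted p was 0.00474, at site 30 0.00338, at site 15 0.0233 and at site 11 0.0348. Sites 14, 24, 29 and 30 had a peak in all 6 parental, GFP and NRAS Q61K libraries and in none of the 4 drug libraries. They made up 12.9% of the sites, and 4.69% of all merged regions had that pattern. Site 30 was the weakest of them, with a −log10 q of 2.6 to 5.6. Its NRAS Q61K 1 peak of 153 bp was shorter than any peak of the drug lists, whose shortest was 255 bp. That peak ended at 140887984, before the first parental peak began at 140888050, so they shared a site through the merging across gaps. Sites 12 and 17 were narrower without being empty in both resistant libraries. Site 12 (140561851 to 140563111) held 1207 and 986 bp in parental, 767 and 902 bp in colony, 741 and 727 bp in GFP and 1200 and 811 bp in NRAS Q61K libraries, 329 bp in resistant 1 and none in resistant 2 (adjusted p = 0.0108). The resistant pair was the lowest of the 5 groups at that site. Site 17 held 271 and 256 bp in resistant libraries, below both parental values (log2 difference -0.69, SE 0.20, adjusted p = 0.0368). Site 3 was wider (adjusted p = 0.0291).

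Sites 14, 24, 27, 29 and 30 were called in resistant cells whichever 1 of the 4 libraries was left out. Without parental 1 sites 11, 12, 15 and 17 missed the threshold (adjusted p from 0.0614 to 0.123) and 4 sites were narrower, without parental 2 sites 3 and 11 (0.0883 and 0.12), without resistant 1 sites 3, 11, 15 and 17 (0.0614 to 0.164, 5 narrower) and without resistant 2 the same 4 (0.0969 to 0.18), so that without parental 2, resistant 1 or resistant 2 only site 27 was wider. With lists of equal length site 17 missed the threshold (0.426) and sites 11, 15 and 30 were not tested, and without peaks of −log10 q under 10 sites 14 and 17 missed it (0.393 and 0.475) and sites 3, 11, 15 and 30 were not tested.

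Set directly against colonies, resistant cells marked 2 of the 17 sites that were empty in both colony libraries, and none of the 11 sites marked in both was empty in both resistant libraries. Over all such regions 5.18% were gained and 8.19% lost. Limma called 5 of 24 sites wider and 2 narrower, where 11.0% and 11.5% of all tested regions were. The median log2 difference was 0.22 over those sites and 0.17 over all tested regions. Sites 4, 11, 14, 15, 24, 29 and 30 had no peak in either group, and their value of 0.22 came from the centring alone. The median of the sites falls on that value, so it does not measure a change in peaks. The gained sites were 9 and 17. Site 9 held 552 and 427 bp in resistant libraries and none in colonies (adjusted p = 0.00158), and every library outside the colony pair had a peak there. Site 17 held 271 and 256 bp against none (adjusted p = 0.00142), and both peaks were shorter than the shortest peak of either colony list, 282 and 284 bp. Site 27 was wider by 1.91 on the log2 scale (SE 0.31, adjusted p = 0.00295), and its 2 resistant values lay above both colony values.

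Other differences between the drug groups were at 4 sites. Site 19 (140602840 to 140603560) held 671 and 547 bp in resistant libraries, 322 bp in colony 1 and none in colony 2 (adjusted p = 0.0286). Site 31 held 2291 and 1954 bp in resistant libraries against 1765 and 1701 bp (log2 difference 0.48, SE 0.11, adjusted p = 0.0153). The authors' −log10 q at site 31 went the other way, with 13.8 and 19.0 in resistant and 36.7 and 24.7 in colony lists, which were scored separately. Site 7 was narrower in resistant cells (log2 difference -1.17, SE 0.24, adjusted p = 0.00836), as was site 12 (adjusted p = 0.0322). Sites 9, 17 and 27 were called whichever library was left out. Site 17 missed the threshold with lists of equal length (adjusted p = 0.116), and sites 9, 12, 17 and 19 did so once peaks with a −log10 q under 10 were removed (0.388 to 0.872). Without colony 1 site 12 missed the threshold (adjusted p = 0.0813), without colony 2 sites 12 and 31 (0.114 and 0.0686), without resistant 1 sites 7, 19 and 31 (0.0662 to 0.125) and without resistant 2 sites 12 and 19 (0.0733 and 0.086), and without centring site 31 did (adjusted p = 0.151).

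GFP cells, the control of the NRAS Q61K cells, lacked peaks that parental cells had. Of the 20 sites marked in both parental libraries, 3 (15%) were empty in both GFP libraries, where 1.64% of all such regions were, and none of 10 was gained, where 9.79% were. Limma called 4 of 24 sites narrower and 0 wider, where 1.69% and 2.67% of all tested regions were, and at an unadjusted p under 0.05 there were 10 narrower and 0 wider sites, where 7.89% and 8.01% of all tested regions passed. The median log2 difference was -0.605 over the sites and -0.03 over all tested regions. The lost sites were 7, 11 and 17. At site 7 the limma adjusted p was 0.0068 and at site 17 0.00355, while site 11 missed the threshold (adjusted p = 0.0519). Site 5 (140248381 to 140249207) held 610 and 577 bp in parental libraries, 142 bp in GFP 1 and none in GFP 2 (adjusted p = 0.0156). Its values in colony, resistant and NRAS Q61K libraries, 787 and 804, 486 and 419, and 624 and 493 bp, all lay above both GFP values. Site 31 was narrower in GFP cells, with 1584 and 1501 bp (log2 difference -0.67, SE 0.11, adjusted p = 0.0201). Sites 7 and 17 were called whichever library was left out, whereas site 5 missed the threshold without parental 1 or parental 2 (adjusted p = 0.0505 and 0.0508) and site 31 without parental 2, GFP 1 or GFP 2 (0.0713, 0.0699 and 0.101), which left 2 narrower sites without parental 2. Once peaks with a −log10 q under 10 were removed sites 5, 7 and 17 missed it (0.52 to 0.658), and with lists of equal length site 17 did (0.146).

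NRAS Q61K cells marked sites that were empty in GFP cells. Of the 10 sites unmarked in both GFP libraries, 4 (40%) were marked in both NRAS Q61K libraries, where 15.5% of all such regions were, and none of 16 was lost, where 3.18% were. Limma called 5 of 24 sites wider and 0 narrower, where 5.06% and 2.18% of all tested regions were, and at an unadjusted p under 0.05 there were 10 wider and 1 narrower site, where 12.0% and 5.76% of all tested regions passed. The log2 difference was positive at 23 of the 24 sites, and at 58.8% of all tested regions, and its median was 0.43 over the sites and 0.05 over all tested regions. The same 2 GFP libraries enter the comparison of GFP with parental cells, in which 22 of the 24 differences, and 55.5% of those of all tested regions, were negative. Among the 22 were sites 2 and 4, which had no peak in either group and whose difference of -0.12 came from the centring alone. Any region empty in both groups of a comparison takes its sign in the same way. Site 7 held 556 and 652 bp against none in GFP (adjusted p = 0.00394), and site 17 held 713 and 655 bp (adjusted p = 0.002). Both were marked in the parental pair as well. Site 11 held 686 and 185 bp (adjusted p = 0.0261) and was otherwise marked in the parental pair alone. Site 4 (140235547 to 140235983) had peaks of 239 and 409 bp in the NRAS Q61K libraries and none elsewhere. They had a −log10 q of 4.9 and 6.4. Testing required a peak in at least 2 libraries, and site 4 met that through the NRAS Q61K pair alone. Its limma adjusted p of 0.00917 is therefore no separate support, although site 4 is among the 5 wider and the 4 gained sites. Site 5 was wider than in GFP cells (adjusted p = 0.0122).

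Site 15, with 560 and 531 bp in NRAS Q61K libraries, 208 bp in GFP 2 and none in GFP 1, missed the threshold (limma adjusted p = 0.0617). Without NRAS Q61K 1 sites 5 and 11 missed it (adjusted p = 0.114 and 0.0893) and site 4 was no longer tested, which left 2 wider sites; without NRAS Q61K 2 site 5 missed it (0.0903), site 4 was again not tested and 3 were left; without GFP 1 or GFP 2 site 11 did (0.117 and 0.119). With lists of equal length site 17 missed it (0.466) and its log2 difference fell from 2.19 to 1.12, and once peaks with a −log10 q under 10 were removed sites 5, 7 and 17 missed it (0.107 to 0.632). Sites 4 and 11 were not tested in either setting.

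**Figure D5:**
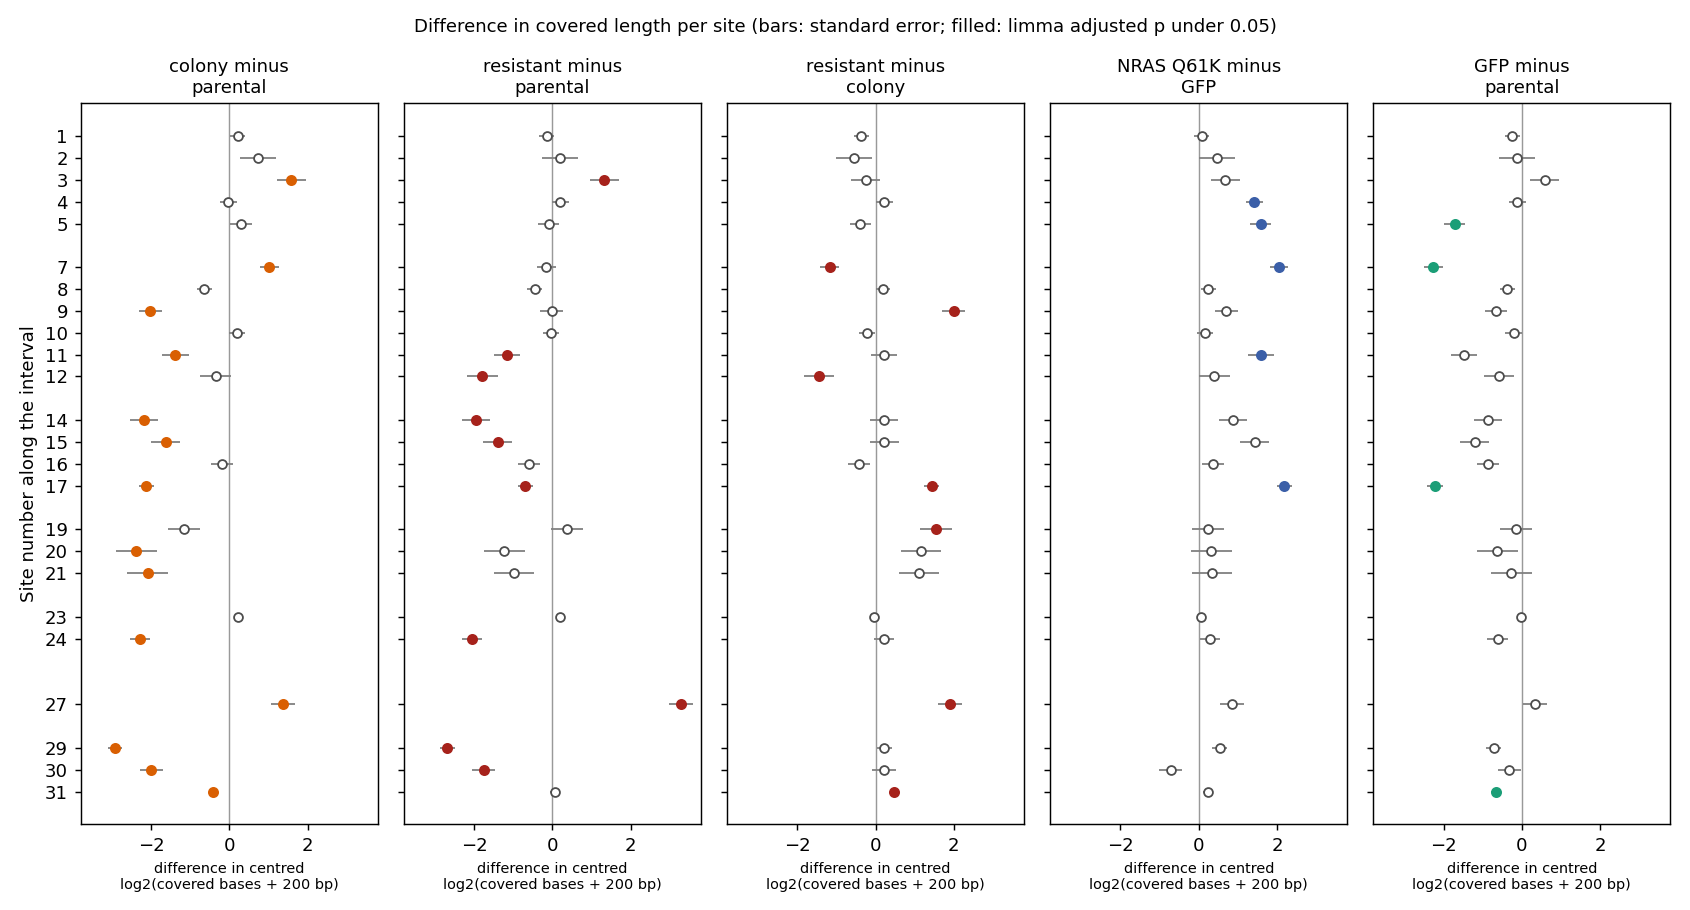
Difference in covered length at the 24 tested sites in the 5 comparisons, as log2 of covered bases plus 200 bp with each library centred, with bars for the standard error and filled points for a limma adjusted p under 0.05. Where a group had no peak at a site the size of the difference depends on the added 200 bp. Site 27 in the resistant panels kept its call in all 13 alternative settings. So did sites 24 and 29 in the drug panels against parental cells.

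The last 8 sites were marked in 1 or 2 libraries. The 7 with a peak in 1 library were not tested, and site 2 passed the threshold in no comparison. Sites 6, 13, 18, 22, 25, 26 and 28 had a peak in 1 library each, 3 of them in NRAS Q61K 1, 2 in GFP 2, 1 in colony 1 and 1 in resistant 1. Single-library sites made up 22.6% of the sites and 26.3% of all merged regions. Site 2 (140201266 to 140201701) held 373 bp in colony 1 and 154 bp in NRAS Q61K 1. The strongest of these 9 peaks was that of site 25 (140729679 to 140730009), with a −log10 q of 7.0 over 331 bp. Replicates shared 95.2% of the sites marked in either library in parental, 78.6% in colony, 76.5% in resistant, 76.2% in GFP and 85.2% in NRAS Q61K cells. Over all merged regions the same shares were 82.8%, 88.5%, 94.0%, 72.3% and 78.1%.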

How the data were processed

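The data are H3K4me3 peak lists of 10 libraries, 2 in each of 5 groups; the 10 inputs were left out. Sequencing was by single reads, per the labels' protocols. The submitters' processing notes name the builds GRCh37 and hg19 and, without roles, MACS2 2.1.2, BWA, deepTools 2.5.4 and SAMtools. The authors deposited, for each library separately, peak positions, a score, the fold of the summit over the local background (a ratio) and the −log10 p-value and −log10 q-value of the summit. The handling of inputs and duplicates is not stated in them.

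Peaks on the 22 autosomes and X were kept (589 others left out) and merged within 1000 bp. A site was gained when both libraries of the first group and neither of the second had a peak, and lost in the reverse case. The bases under peaks, plus 200 bp, were taken to log2, each library centred on the median of the 12087 regions covered in all 10 libraries. The 23153 regions marked in 2 or more libraries were fitted with limma 3.58.1 (R 4.3.3), using a mean for each of the 5 groups and eBayes with trend. Benjamini-Hochberg adjustment ran over all of them, with 0.05 as the threshold. The fit was tested on simulated data built from regions covered in all 10 libraries, so it was not tested on sites where a library had no peak. Other steps used matplotlib 3.10.9, pandas 2.3.3 and numpy 2.4.6 under Python 3.11.15. Promoter sequences came from RefSeq (GRCh38.p14).

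Named sites were those called, gained or lost in any comparison or marked in all 10 libraries. Sites 2, 25 and 28 lie outside that rule and were named after their values were seen. The members, lists and tests were chosen with earlier results of these data known. Alternatives tried were removal of peaks with a −log10 q under 10, lists of equal length, merging of overlapping peaks only, an overlap of at least 200 bp, pseudocounts of 50 and 1000 bp, no centring, no filter, the replicate number as a block and leaving out each library.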

Additional observations from a re-analysis of the deposited data

Results flagged for a closer look

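The change from parental cells differed between the 2 drug groups at 7 sites, by the limma test of resistant against colony cells (adjusted p under 0.05). On the log2 scale of covered length, resistant minus colony, the difference was -1.17 at site 7, 2.0 at site 9, -1.44 at site 12, 1.43 at site 17, 1.54 at site 19, 1.91 at site 27 and 0.48 at site 31. At sites 9, 12, 17 and 19 at least 1 library had no peak, so the size depends on the added 200 bp. The shortest peak was 282 and 284 bp in colony and 255 and 256 bp in resistant lists, and its part in these differences was not tested.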

How the results depend on the processing

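Of 230 counts under the alternatives 176 stayed within 1.5 times the main count. Of 500 values at called sites 405 kept direction and call, and 1 turned: site 27 in colonies, at -0.03 once peaks with a −log10 q under 10 were removed. That stricter threshold left 11 sites marked in both parental, 7 in both colony, 5 in both resistant, 9 in both GFP and 16 in both NRAS Q61K libraries. Lists of equal length left 17, 9, 13, 9 and 16, so that parental cells had the most and GFP cells as few as colonies. With the stricter threshold colonies had 1 site wider, 4 narrower, 0 gained and 4 lost; resistant cells had 1 wider and 5 narrower against parental and 2 wider, 1 gained and 2 lost against colonies; NRAS Q61K had 2 wider; GFP had 2 narrower and 1 lost. With lists of equal length colonies had 7 narrower, resistant cells 4 narrower, 2 gained and 3 lost, and GFP 7 lost. Against parental cells resistant cells had 1 wider with a pseudocount of 50 bp or no centring and 5 narrower with 1000 bp, and against colonies 1 narrower with 50 bp. Merging of overlapping peaks alone ended the calls of site 30 in both drug groups (adjusted p = 0.0641 and 0.0913), and an overlap of at least 200 bp those of site 11 (0.13, 0.169 and 0.386). Stricter and equal lists test fewer peaks, and the cause of the other shifts was not tested.

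Leaving out each library gave, in colonies, 0 to 3 wider, 7 to 8 narrower and 1 to 3 gained; in resistant against parental cells 1 to 2 wider, 4 to 8 narrower and 1 to 2 gained; in resistant against colony cells 1 to 2 narrower, 2 to 4 gained and 0 to 2 lost; in NRAS Q61K cells 2 to 6 wider, 4 to 8 gained and 0 to 2 lost; and in GFP cells 2 to 4 narrower and 0 to 2 gained. A library left alone in its group is assumed to vary like the other groups.

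The replicate number did not pair the libraries: over the tested regions the differences of replicate 1 and 2 correlated between groups with r from -0.0659 to 0.0773. With the replicate number as a block resistant cells had 7 sites narrower than parental, site 17 missing the threshold (adjusted p = 0.0555), and all other counts of calls were equal to those without it (3 wider and 11 narrower in colonies, 2 wider in resistant cells, 5 and 2 in resistant against colony, 5 and 0 in NRAS Q61K, 0 and 4 in GFP). The lists hold no counts, so a site without a peak may carry a mark below the caller's threshold.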
